A study of Mus musculus with 24 samples.

Results

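The mRNA content of the normal hippocampus on postnatal day 9 (P9) was described from the 5 arrays of untreated control (Con) mice, out of 24 arrays in the series. They are the Con arrays among the 15 that measured mRNA and are numbered 15 to 19 by the submitters. Each carries 55681 non-control probes, which name 23688 different gene symbols. The mice were C57BL/6 males that had been housed normally with minimal handling, received no drug (0 mg/kg morphine) and were killed on P9. Mice of the MS2 and MS5 groups had received morphine at 2 or 5 mg/kg from P5, together with separation from the dam and short apnea. Those 10 treated mRNA arrays were used here to see how the same probes behaved on arrays that had no part in the choice of genes and in 1 comparison of slides, and treatment was not compared with control. Each array held RNA of 1 mouse, whose left and right hippocampi had been pooled before extraction. The litter of each mouse is not given in the sources used here, so the spread is that between these animals. The tissue was a mixture of every cell type in the dissected piece. Fewer cells of a type and less RNA per cell cannot be told apart in such samples.

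The hippocampus is a folded strip of cortex that stores new memories. Its excitatory cells are the pyramidal neurons of the CA fields and the granule neurons of the dentate gyrus, and they are held in check by inhibitory interneurons that release GABA. In the mouse the second postnatal week is a time of fast growth: granule neurons are still being born, axons and dendrites extend, synapses form, astrocytes mature and the first oligodendrocytes begin to wrap axons in myelin. The choroid plexus, the ciliated ependyma of the ventricle and the meninges touch the hippocampus and may stay attached to it on dissection, and the striatum, thalamus and cortex lie close by.

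Levels are log2 values after background adjustment and quantile normalization, and an error given as ± is the SD over the 5 arrays (n = 5 mice). A spot was called well above background by the scanner software when its background-subtracted signal was significant and exceeded a set multiple of the background's own spread. The share of spots that passed lay between 74.5% and 79.0% on the 5 Con arrays, the median spot signal between 121 and 153, and 0 spots were saturated. The brightness of a spot depends on its probe sequence as well as on the RNA. An order of genes by level is therefore an order of probe signals and not of mRNA copies. With 5 arrays, each spread is itself imprecise. The arrays lay on 2 slides, with replicates 15, 17 and 18 on slide 1 and replicates 16 and 19 on slide 2. Con replicate 19 stood apart from the other Con arrays at many genes. The array of replicate 17 carried outlying spots that put genes among the most variable, most of these in 2 small patches. The most variable genes are therefore given with and without called spots. For replicate 19, the number of those genes that stayed without that array is given. Other results that rest on replicate 19 are given with it. Among treated arrays, the library labelled MS2 replicate 4 was low in hippocampal genes (mean of 12 principal neuron genes 10.37, against 12.56 to 13.23 on the other 14 arrays), and the library labelled MS5 replicate 9 did not carry a male pattern (Xist 11.34, Ddx3y 6.24). The 5 Con arrays fitted their label as males. Xist, the transcript that silences an X chromosome in females, was above background on 0 of them (5.97 ± 0.06), and the Y-linked genes Ddx3y and Eif2s3y lay at 11.28 ± 0.16 and 12.32 ± 0.21.

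Most probes and most gene symbols on the array were well above background. Of 55681 probes, 39525 (71.0%) were well above background on all 5 Con arrays, 5196 on 1 to 4 arrays and 10960 (19.7%) on no array. By gene, counting a gene as not above background only when none of its probes was, 18823 of 23688 symbols (79.5%) were detected on all 5 arrays, 1504 on some and 3361 (14.2%) on no array. Probes detected on all 5 arrays had a median level of 8.78 and spanned 6.13 to 18.75. Those detected on no array lay in a narrow band with a median of 5.91 and a highest value of 6.17, which is the floor of this measurement. Values near the floor have no order.

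The calls held on arrays of other mice. Of the 39525 probes detected on all Con arrays, 36281 were detected on all 10 treated arrays and 0 on no treated array. The array of MS2 replicate 5 was dim, with a median spot signal of 58. On it 36839 probes (66.2%) were detected, against 71.7% to 78.1% on the other treated arrays. A count over all 10 cannot exceed that number. Of the 10960 detected on no Con array, 8864 were also detected on 0 of the 10 treated arrays, 1972 on 1 to 3, 124 on 4 to 9 and 0 on all 10. Detection differed with the kind of transcript a probe targets. Probes for curated coding transcripts (RefSeq) were detected on all 5 arrays in 82.4% of cases, with a median level of 9.21. Probes for intergenic regions, which test for long non-coding transcripts and are named by their coordinates, were detected in 57.8%, with a median level of 6.41. Among autosomes the share detected ran from 66.2% on chromosome 6 to 76.7% on chromosome 11. On the unplaced Y sequence, which holds repeated testis genes, it was 24.4%.

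**Figure D1:**
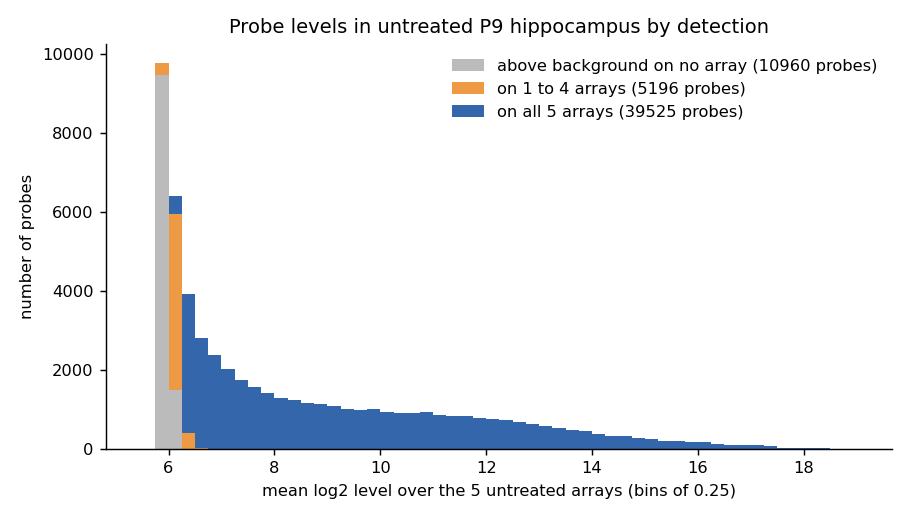
Number of probes by mean log2 level over the 5 untreated arrays, in bins of 0.25, stacked by the number of arrays on which a probe was well above background. The 10960 probes detected on no array all lie at or below 6.17, and the 39525 detected on all 5 arrays spread from 6.13 to 18.75.

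Several gene families that act in the nose, tongue, skin and immune cells held many of the genes that were not detected. Olfactory receptors, the odour sensors of the nasal epithelium, are the largest family on the array: of 1101 symbols, 716 were detected on no Con array and 218 on all 5. That share of 65.0% on no array stands beside 14.2% for all symbols. Their median level was 5.93, at the floor. Vomeronasal pheromone receptors (146 of 262 on no array), bitter taste receptors (25 of 35) and trace amine receptors (9 of 14) were alike in this. The 4 trace amine receptors detected on all 5 arrays were Taar5, Taar4, Taar7b and Taar7f, none with a mean level above 6.50. Of the 32 proteins of the late cornified envelope and the small proline-rich family, which build the horny layer of skin, 19 were on no array, although the probe for Sprr2a2 had a level of 17.01 ± 0.06. The killer cell lectin-like receptors of natural killer cells (19 of 31) and the antimicrobial defensins (31 of 61) were on no array in these numbers, with Defb11 at 11.36 ± 0.36 as the brightest defensin. Other skin and immune families were mostly detected. On all 5 arrays were 34 of 52 keratins, 28 of 51 keratin-associated proteins, 11 of 12 interferon alphas and 23 of 33 chemokines, beside 79.5% of all symbols.

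Position along the body axis showed in the Hox genes, the homeobox regulators of hindbrain, spinal cord and trunk identity. Of 40 Hox symbols, 26 were on no array and 8 on all 5, and the brightest was Hoxb3 at 7.44 ± 0.30. Markers of other brain regions were mixed. In the hindbrain and monoamine list 5 of 14 genes were on no array, among them Atoh1 and Gabra6 of cerebellar granule cells, En1 and Hoxb5. Tyrosine hydroxylase (Th, the rate-limiting enzyme of catecholamine synthesis) was detected on all 5 at 9.85 ± 0.23. Of 16 hypothalamic genes 12 were on all 5 arrays, beside 79.5% of all symbols. Among the 12 were Hdc, which makes histamine (10.31 ± 0.56), and the hormone precursor Pomc (10.00 ± 0.11). The regulators Sim1 and Otp were on no array and Rax on 1. Of the thalamus list 10 of 11 genes were on all 5, and of the neocortex list 7 of 7. Cytokines were divided. Of 38 interleukin symbols 20 were on all 5 arrays, and the inflammatory interleukins Il6 and Il1a and the regulatory Il10 and Il2 were on no array.

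Many organ markers from outside the brain were detected. On all 5 arrays were 5 of 6 skin genes, 6 of 7 of pancreas, 8 of 11 of heart and skeletal muscle, 6 of 9 of liver, 7 of 11 of T and B cells and 5 of 8 of retina and lens, beside 79.5% of all symbols. The share was lower in the testis (3 of 6), kidney (3 of 6), lung and gut (4 of 9) and pituitary (2 of 6) lists. Albumin (Alb), the main plasma protein made by the liver, was on no array (5.98 ± 0.06). So were Umod, Slc12a1 and Slc12a3 of the kidney tubule, the surfactant genes Sftpb and Sftpa1, the gut regulator Cdx2, the pituitary hormone subunits Cga and Fshb, the sperm tail gene Odf1, filaggrin (Flg), the cone opsin Opn1sw, the atrial light chain Myl7 and the T-cell receptor partners Cd3d and Cd3g. Among those detected on all 5 were loricrin (Lor, 12.99 ± 0.06) in the skin list, Apoa2 (12.33 ± 0.10) in the liver list, and Cd4 (12.11 ± 0.21) in the T and B cell list. Whether those probes read the named transcript was not tested.

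The machinery that every cell runs was detected almost in full. Of 106 cytosolic ribosomal protein symbols, 104 were on all 5 arrays, with a median level of 16.08, beside a median of 9.10 over all gene symbols. The single ribosomal symbol on no array was Rpl10l (6.00 ± 0.07), a copy of Rpl10 that is used in the testis. The respiratory chain was alike: 42 of 42 NADH dehydrogenase subunits (median 15.22), 17 of 17 ATP synthase subunits (median 16.03) and 18 of 19 cytochrome c oxidase subunits were on all 5, and the exception was the testis subunit Cox8c (5.88 ± 0.05). Of 40 proteasome subunits the exceptions on no array were Psmb11, the subunit of thymic epithelium, and Psma8, that of germ cells.

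Neuronal signalling families were nearly complete as well. All 21 ionotropic glutamate receptor subunits, which carry fast excitation, were on all 5 arrays. Of 19 GABA-A receptor subunits 17 were, and the exceptions were Gabra6 (5.88 ± 0.04), known from cerebellar granule cells, and Gabre (5.98 ± 0.03). Of 95 potassium channel symbols 86 were on all 5 arrays and 5 on none: Kcnv2, Kcnn1, Kcne1, Kcnj1 and Kcnk18. All 47 protocadherins, cell adhesion proteins that give neurons their surface identity, were on all 5, as were all 18 tubulins. The spread of single genes between mice was small throughout. The median SD over all probes detected on 5 arrays was 0.11, and 99% of those probes had an SD below 0.47.

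**Figure D2:**
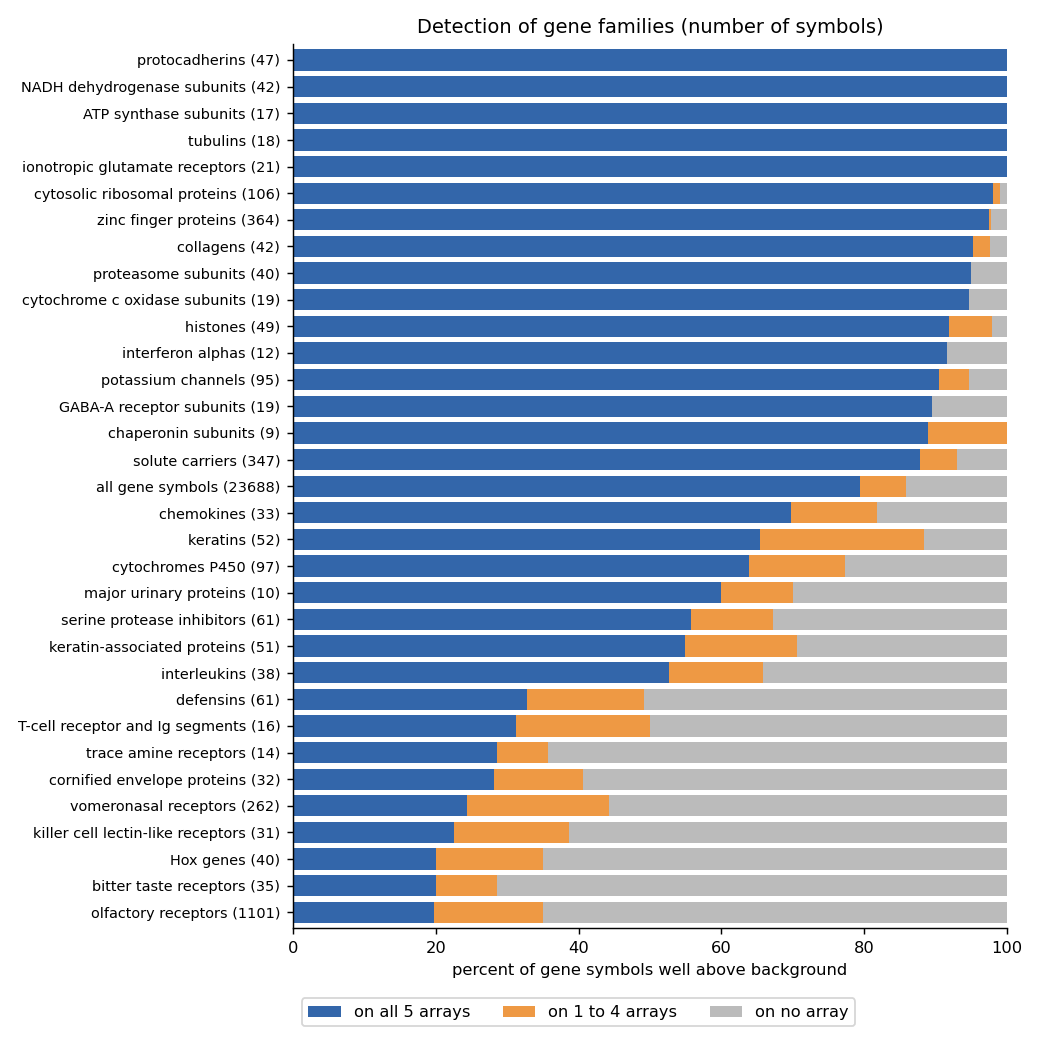
Share of the gene symbols of each family (number of symbols in brackets) that were well above background on all 5, on 1 to 4 or on no untreated array. Families of the respiratory chain, ribosome and ion channels sit at the top of the plot and receptors for odours, pheromones and bitter taste at the bottom, with 65.0% of olfactory receptors on no array.

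The 30 genes with the brightest probes held genes known for abundant mRNA beside others that are not. The first kind included the cytoskeletal genes Actb (18.40, 18.37, 18.33, 18.37 and 18.40 on replicates 15 to 19), Actg1, Tubb2a, Tuba1a and Tuba1b, the mitochondrial genes COX1 and COX2, the oxidase subunit Cox6a1, the folding enzyme Ppia, the ribosomal RNA gene Rn18s, the small RNA gene Rn4.5s and Cpe, which trims prohormones in secretory vesicles. SDs over the 30 genes ran from 0.01 to 0.11. Quantile normalization gives every array the same set of values, so the spread of the brightest probes is limited by the method.

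The other kind was led by genes that are not known for abundance in brain. The brightest of all was Slc10a1, the bile acid transporter of liver cells, with 18.71 on replicate 15 and 18.76 on each of the other 4 arrays. The only other probe for Slc10a1 on the array was at the floor (6.01). Elk1 (18.69), Kctd14 (18.67), coagulation factor F10 (18.63), Ttc38 (18.60), Med16 (18.36), Ndor1 (18.23) and Pbld1 (18.19) ranked beside Actb, and the brightest other probe of each gene read 7.65, 8.44, 6.30, 8.77, 12.05, 9.72 and 6.53. In all, 20 of the 30 genes had another probe, and for 13 of them it lay more than 5 below the brightest.

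The probe sequences held a shared feature that the ranking had not used. Each probe of 60 bases was searched for stretches of 20 bases that also occur in the promoter windows of genes in RefSeq (build GRCm38.p6, 250 bases before to 50 after each gene start, 32851 windows, same strand or the reverse). A probe with such a stretch in 10 or more windows was called repeated. Of all 55681 probes 303 (0.544%) were repeated, of the 100 brightest 26, and of the 30 genes ranked by level 15. The probe of Slc10a1 was not among them. Of the 13 genes whose other probe lay more than 5 below, 10 had a repeated probe, and the exceptions were Slc10a1, Zfp628 and Atp9a. Repeated probes had a median level of 13.90, against 7.70 for probes with a stretch in 1 to 9 windows and 7.29 for probes with none. Representative stretches of 30 bases are shown to let the repeats be seen beside their levels. Capitals mark the 20 bases found in many promoter windows.
Elk1: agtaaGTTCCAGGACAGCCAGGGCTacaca
Kctd14: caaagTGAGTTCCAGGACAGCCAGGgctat
F10: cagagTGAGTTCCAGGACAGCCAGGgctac
Med16: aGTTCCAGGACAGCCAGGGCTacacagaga
Exosc2: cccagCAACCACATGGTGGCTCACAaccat
Gm885: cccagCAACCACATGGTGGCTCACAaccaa
Pbld1: gagtgTCTGAAGACAGCTACAGTGTaattt
1700047I17Rik2: tggtgTCTGAAGACAGCTACAGTGTtctta
Synrg: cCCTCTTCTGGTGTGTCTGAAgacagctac

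In mm9, the build of the array's own coordinates, these probes lie on different chromosomes. The Elk1 probe is at chrX:20510521-20510580 (minus strand), that of Kctd14 at chr7:104606896-104606955 (plus), that of F10 at chr8:13056119-13056178 (plus) and that of Med16 at chr10:79357669-79357728 (minus). The Exosc2 probe is at chr2:31536706-31536765 (plus) and the Gm885 probe at chr11:106628762-106628821 (plus). The Pbld1 probe is at chr10:62540215-62540274 (plus), the 1700047I17Rik2 probe at chr12:56243005-56243064 (plus) and the Synrg probe at chr11:83855517-83855576 (plus). Which exon, intron or UTR each lies in was not analysed here, since no mm9 annotation was used. The capital bases of Elk1 and Med16 were found in 19 windows, those of Kctd14 and F10 in 24, those of Exosc2 and Gm885 in 57, those of Pbld1 and 1700047I17Rik2 in 40 and those of Synrg in 43. The first 12 capital bases of the Pbld1 stretch, tctgaagacagc, stood in 11 of the 100 brightest probes and in 19 of all 55681. It occurred in 73 of the 32851 promoter windows. A match of this kind is a description of the letters and does not show which RNA bound the probe.

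**Figure D3:**
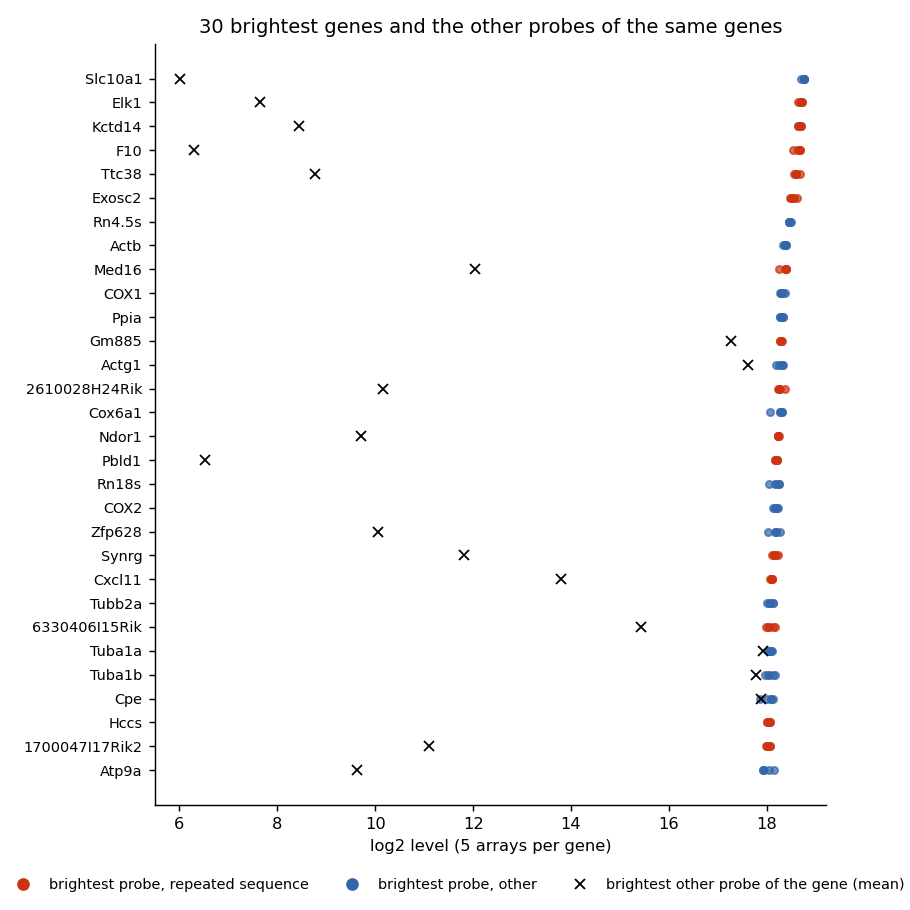
Log2 level on each of the 5 untreated arrays for the brightest probe of the 30 brightest genes (points), with the brightest other probe of the same gene where there is one (crosses). For 13 of the 30 genes, among them Slc10a1 (6.01) and F10 (6.30), the other probe lies more than 5 below, whereas those of Actg1, Tuba1a, Tuba1b and Cpe lie near the points.

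With repeated probes set aside, 15 of the 30 genes remained and the next in order were chosen after their values were seen. They were Rpl41 (17.97), Ttr (17.95), Gapdh (17.93), Tpt1 (17.91), Rplp0 (17.89), Rtn1 (17.88), Rps14 (17.86) and Calm2 (17.82). Rtn1 is a neuronal reticulon of the endoplasmic reticulum, and Calm2 encodes calmodulin, the calcium sensor. Further down stood Sparcl1 (17.68) and Apoe (17.39) of astrocytes, Stmn4 (17.49) and Stmn1 (17.42), which regulate microtubule growth in young neurons, and the iron stores Ftl1 (17.63) and Fth1 (17.50). Hba-a2, the alpha globin of red blood cells, had a level of 17.73 with an SD of 0.49, the widest SD among the first 60 unrepeated genes. Zfp628 and Atp9a remained in the list, although their other probes read 10.06 and 9.63. Across the array, probes of 1 gene often differed: of 5054 genes with at least 2 probes detected on all 5 arrays, 2492 (49.3%) had a difference above 2 between their brightest and dimmest probe.

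Genes that define the hippocampus were present at high levels. All 12 markers of its principal neurons were on all 5 arrays, with a median of 13.45. Counts of list genes detected, here and in the paragraphs that follow, stand beside 79.5% of all symbols on all 5 arrays. Zbtb20, which specifies the hippocampal fate of CA1 neurons, had levels of 14.92, 14.94, 14.70, 14.71 and 14.29 on replicates 15 to 19. Neurod6, of pyramidal neurons, had 13.75, 13.78, 13.73, 13.79 and 13.32. Replicate 19 was lowest for Zbtb20 and Neurod6 and the other 4 arrays lay close together for Neurod6. Field markers were detected too: all 10 of the dentate granule cell list, with Prox1 at 9.95 ± 0.29 and Calb1 at 10.68 ± 0.21, all 7 of the CA1 list, with Wfs1 at 13.25 ± 0.13 and Fibcd1 at 10.60 ± 0.23, and 10 of 11 of the CA2 and CA3 list, with Grik4 at 13.78 ± 0.06. Only Iyd of that list fell short, on 4 arrays (6.25 ± 0.09). Levels of list genes are those of the brightest probe. Of 503 list genes 149 had 2 probes or more, and for 22 genes another probe lay more than 5 below.

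Interneuron genes were all detected, 22 of 22. Cck, a neuropeptide of both basket cells and pyramidal cells, was the brightest with 17.39, 17.30, 17.21, 17.27 and 17.03. The GABA transporter of synaptic vesicles, Slc32a1 (15.31 ± 0.49), the cannabinoid receptor Cnr1 (14.84 ± 0.16), the peptide Sst (14.44 ± 0.17) and the GABA-making enzymes Gad2 (13.28 ± 0.38) and Gad1 (13.19 ± 0.21) were also in this list. The dimmest probe of Slc32a1 read 8.68. Lhx6 read 14.84 through a repeated probe. Pvalb, the calcium buffer of fast-spiking interneurons that appears late in development, had an SD of 1.07, next in the list to Sp8. Of the 6 Cajal-Retzius genes on the array, markers of an early-born cell of the outer layer, 6 were on all 5 arrays, with Trp73 at 8.71 ± 0.14 and Reln at 8.53 ± 0.08.

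Genes of growing and newborn neurons stood near the top of the range. Of 21 growing neuron genes 21 were on all 5 arrays, with a median of 15.53. Among them were Tmsb4x (17.67 ± 0.06), which binds actin monomers, Stmn2 (17.10 ± 0.13) and Gap43 (16.75 ± 0.12) of the growth cone, and doublecortin (Dcx, 14.00 ± 0.28) of migrating neurons. The dimmest probe of Dcx read 8.43. All 14 cell cycle genes were on all 5 arrays, beside 79.5% of all symbols, with Cenpf the nearest to the floor (6.40 ± 0.07). Mki67, a protein of cycling nuclei, had 11.57, 12.10, 11.73, 11.77 and 12.26. Replicate 19 was the highest for 13 of these 14 genes, whose list means had a range of 0.42. Of all detected gene symbols, 4686 were highest on replicate 19 and 3261 to 4951 on each other array. Progenitor genes such as Fabp7 (16.39 ± 0.12), Hes5 (15.01 ± 0.09) and Eomes (9.12 ± 0.18), the last of intermediate progenitors, were on all 5 arrays, 12 of 12. The synapse list was also complete, 26 of 26 with a median of 15.00. It held the vesicle proteins Syt1 (16.13 ± 0.17) and Syp (15.29 ± 0.18) and the scaffold Dlg4 (12.09 ± 0.12).

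Subunits that replace each other as synapses mature were measured side by side. Grin2b, the juvenile NMDA receptor subunit, had 12.01 ± 0.34, and Grin2a, the one that rises with age, 11.07 ± 0.22. For chloride transport, the mature neuronal exporter Slc12a5 read 15.86 ± 0.12 and the importer Slc12a2 12.23 ± 0.14. The dimmest probe read 7.74 for Slc12a5 and 7.90 for Grin2a. All 18 genes of this list were on all 5 arrays. Since each gene has its own probe, these pairs say that both partners were detected and do not give their ratio.

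Glial genes were detected for every glial type. All 17 astrocyte genes were on all 5 arrays, among them Aldoc (17.34 ± 0.08), Aldh1l1 (14.02 ± 0.15) and the water channel Aqp4 (12.97 ± 0.10). All 16 microglial genes were as well, with Csf1r at 14.38 ± 0.15 and the purine receptor P2ry12 at 10.35 ± 0.25. The 9 oligodendrocyte precursor genes, such as Pdgfra (12.47 ± 0.08), were complete, and of 16 myelin genes 14 were on all 5 arrays. Opalin, a late myelin gene, was above background on 1 array. All 21 genes of blood vessel cells were on all 5 arrays, with the tight junction protein Cldn5 at 14.19 ± 0.08.

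The genes that varied most between untreated mice were of distinct kinds: genes with an outlying spot on 1 array, and genes of the striatum, of myelin and of neighbouring tissue. Ranked by SD, the first 30 genes had SDs from 1.20 to 3.17. For 10 of the 30 the scanner software had called the spot of 1 array non-uniform or a population outlier. Among all 20327 symbols ranked in this way, 18 (0.0886%) had such a spot. Mical3, the first in rank, read 8.12, 7.98, 14.96, 7.75 and 7.71, with the called spot on replicate 17. Olfr70, an olfactory receptor, read 6.02, 12.10, 6.07, 5.96 and 6.07, with the called spot on replicate 16. Hsd17b7, an enzyme of sterol synthesis, read 10.51, 10.53, 16.19, 10.32 and 10.16, again with replicate 17. In each case 4 arrays lay together and 1 far above, and on the treated arrays the SD of these genes was 0.16, 0.08 and 0.08.

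Of the 15 probes with a called spot on that array and an SD above 1, 5 lay in rows 115 to 124 and columns 116 to 117, and 7 in rows 373 to 384 and columns 101 to 104, on a grid of 384 rows and 164 columns. The remaining 3 lay elsewhere. Mical3, Hsd17b7, Yars2 and D430042O09Rik belonged to the upper patch. Ache, S100a3 and Cct3 belonged to the lower. Cct3, a subunit of the chaperonin that folds actin and tubulin, read 12.74, 12.84, 15.69, 12.83 and 12.82.

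Of the 30 genes, 19 were highest on replicate 19 and 9 on replicate 17. The 19 became 7 of the 30 most variable genes with the processed signal scaled to the 75th percentile and 11 with a normexp offset of 0. Over all 20327 symbols, 22.2% were highest on replicate 19 by their most variable probe. Without the called spots, 26 of the 30 most variable genes and 46 of the first 60 were highest on replicate 19. Con replicate 19 had 99 probes (74 gene symbols) more than 1 above every other Con array, none of them with a called spot. The other arrays had 14 to 29 such probes without a called spot (2 to 12 gene symbols). Replicate 19 also had 9 probes more than 1 below every other array.

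Genes of striatal neurons led this group. Scn4b, a sodium channel subunit of striatal spiny neurons, read 8.19, 8.23, 8.73, 7.97 and 12.18 on replicates 15 to 19. Penk, the precursor of enkephalin, read 11.87, 11.66, 11.96, 11.53 and 14.85. In both replicate 19 stood alone and the other 4 arrays lay close together. The dopamine signalling integrator Ppp1r1b (11.46, 11.99, 12.18, 11.46 and 14.90), the dopamine receptor Drd1a (8.20, 7.90, 8.06, 8.19 and 10.72), the adenosine receptor Adora2a (7.50, 7.60, 7.67, 7.76 and 10.21) and the G protein regulator Rgs9 (12.06, 11.93, 12.02, 12.18 and 14.62) had the same shape. All 7 genes of the striatum list were highest on replicate 19. The list was written with earlier results of these data known, so this count and the list mean are no independent test. The mean of the list was 8.88, 9.04, 9.36, 8.95 and 11.73 on replicates 15 to 19, and the mean over all gene symbols stayed between 9.41 and 9.43. Striatal genes were high on some treated arrays as well: the list mean was 11.69 on MS2 replicate 5, 12.22, 11.00 and 10.94 on MS5 replicates 8, 12 and 14, and 8.99 to 9.77 on the other 6. The part of striatal tissue in these values was not tested.

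Single regulators in the list of most variable genes had another order. Lhx8, of cholinergic neurons, read 6.38, 6.78, 8.66, 6.25 and 9.59. Isl1 read 6.27, 7.49, 8.43, 6.12 and 9.59. Both were lowest on replicates 15 and 18 and highest on 19, with 17 next. The most variable probe of Pvalb read 10.08 on replicate 19 and 6.99 to 7.67 on the other 4 arrays.

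Myelin genes formed another group with graded differences. Mobp, of compact myelin, read 8.53, 7.79, 10.83, 7.12 and 12.70. Mag, of the inner myelin layer, read 10.10, 10.07, 11.71, 9.55 and 12.98. In both the order was 18 lowest, then 15 and 16, then 17 and 19. The mean of the 16 myelin genes was 9.91, 9.94, 10.54, 9.56 and 11.12, and 12 of 16 were highest on replicate 19. Oligodendrocyte precursor genes kept that order over a smaller range, with means of 11.74, 11.66, 12.02, 11.57 and 12.31. Not every probe of a gene showed it: Mbp, another main myelin protein, varied from 8.18 to 11.36 on 1 probe (SD 1.24) and had an SD of 0.16 on its brightest probe (12.78).

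**Figure D4:**
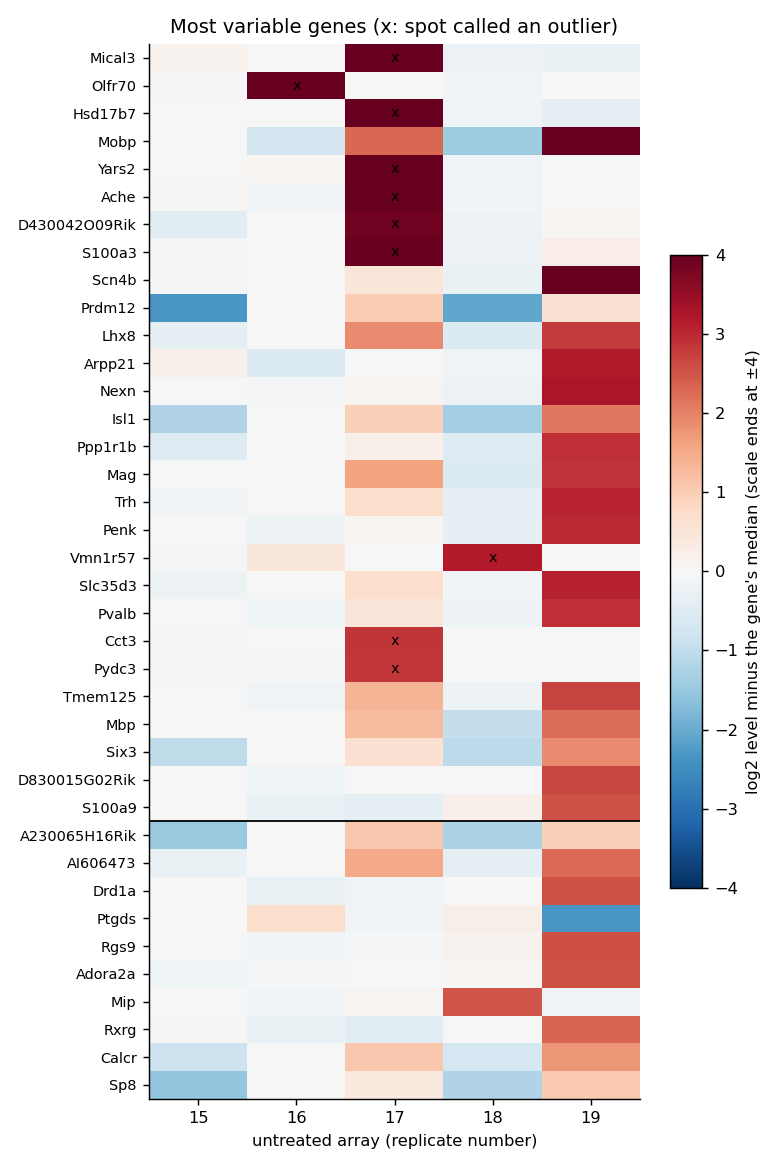
Log2 level of each gene minus its median over the 5 untreated arrays, for 28 of the 30 most variable genes (above the line) and the 10 more that enter when probes with a called spot are left out (below the line). Crosses mark the spots that the scanner software called outliers, 8 of them on replicate 17, and the column of replicate 19 holds the highest value for 17 of these 28 genes.

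Genes of the meninges went the other way on replicate 19. Those described first were chosen after their values were seen. Ptgds, the prostaglandin D synthase of the leptomeninges, read 16.73, 17.43, 16.63, 16.96 and 14.39. Igfbp6 read 10.46, 10.60, 10.02, 10.71 and 8.73, and the transporter Slc6a12 read 9.09, 9.57, 8.86, 9.50 and 7.49. The proteoglycan Dcn, one of the meninges list, read 14.77, 14.16, 13.97, 14.59 and 13.03. Replicate 19 was lowest in all of these and its values did not overlap those of the other 4. The mean of the 13 meninges genes was 10.95, 11.30, 11.03, 10.98 and 10.16, and 11 of 13 were highest on replicate 16. Of all detected gene symbols, 3481 were highest on replicate 16 and 3261 to 4951 on each other array. The imprinted growth factor Igf2 of that list read 10.77, 10.88, 10.65, 9.53 and 9.19, with replicate 18 low as well.

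Choroid plexus and ependyma split the arrays differently. Ttr, the thyroxine carrier made in the plexus, read 17.66, 18.15, 18.13, 17.88 and 17.92. Enpp2 read 14.98, 15.59, 15.96, 14.95 and 15.48, and the regulator Otx2 read 11.36, 12.60, 12.43, 11.56 and 11.99. Replicates 15 and 18 were lowest and 16 and 17 highest. Over the 19 choroid plexus genes the means were 11.12, 12.02, 11.98, 11.35 and 11.58, and each of the 19 was highest on replicate 16 or 17. Of all detected gene symbols, 3481 were highest on replicate 16, 3261 on replicate 17 and 3943 to 4951 on each other array. Foxj1, the regulator of motile cilia, read 10.26, 11.22, 11.11, 10.14 and 11.17, and the means of the 10 ependymal genes were 10.15, 10.92, 10.78, 10.04 and 10.91. Replicates 15 and 18 were thus low for both lists, and replicate 19 lay with the high arrays for ependyma but between the groups for choroid plexus.

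The same division ran through a set of regulators chosen after their values were seen. Zic1, of the septum, thalamus and meninges, read 11.94, 13.34, 13.69, 11.84 and 13.45. Zic4 read 8.14, 9.73, 10.31, 8.43 and 9.88, Prdm12 6.45, 8.79, 9.81, 6.72 and 9.42, and the urea transporter Slc14a2 10.31, 11.80, 11.84, 10.40 and 11.95. In all 4 genes replicates 15 and 18 lay together and at least 1 below the other 3 arrays. These 3 arrays come from both slides. Other probes of the same genes did not all show it: their SD was 0.10 for Prdm12, 0.35 for Zic1 and 0.31 for Slc14a2, but 0.88 for Zic4.

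Blood genes had another order. Hba-a2 read 18.19, 18.02, 17.01, 17.96 and 17.47, and the beta globin Hbb-b1 read 16.36, 16.06, 14.75, 16.17 and 15.52. Replicate 17 was lowest and 19 next in both. The mean of the 13 red blood cell genes was 11.51, 11.45, 10.76, 11.40 and 11.11. S100a9 and S100a8, the calcium-binding pair of neutrophils, read 7.96, 7.70, 7.59, 8.16 and 10.49, and 6.84, 6.48, 6.61, 6.90 and 8.64, with replicate 19 highest and apart.

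Lists of hippocampal neurons had a narrower range between arrays than those of striatum or myelin, but their genes varied more than the typical gene: the median SD was 0.20 in the principal neuron and in the dentate granule cell list, against 0.10 over all gene symbols. The mean of the 12 principal neuron genes was 13.23, 13.12, 13.11, 13.20 and 12.83, with replicate 19 the lowest and 0 of 12 genes highest there. The dentate granule cell list had means of 9.89, 9.70, 9.75, 9.77 and 9.53, and the synapse list 14.21, 14.07, 14.20, 14.12 and 14.02. Astrocyte means lay between 14.02 and 14.28. Among 19 immediate early genes, which neurons switch on with activity, Nr4a2 had the widest SD and read 13.43, 12.31, 12.34, 13.41 and 11.88, and Npas4 read 10.17, 10.02, 10.78, 10.44 and 11.16. The means of that list stayed between 9.46 and 9.74. Among embryonic genes, the imprinted H19 read 10.96, 11.51, 11.13, 11.66 and 10.16.

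**Figure D5:**
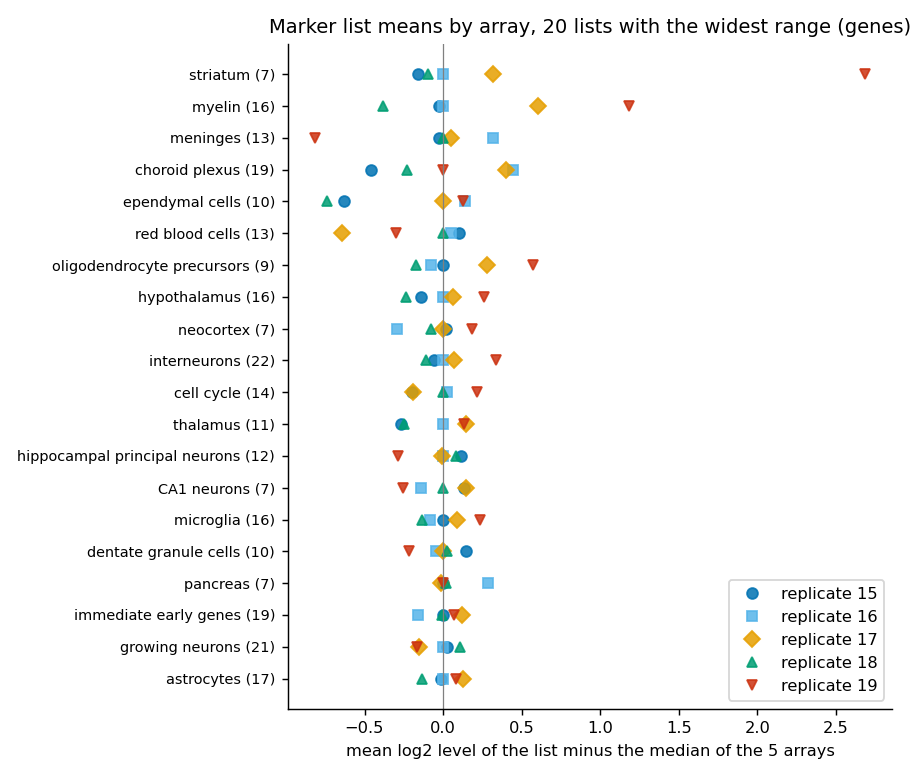
Mean log2 level of each marker list (number of genes in brackets) on each untreated array, minus the median of the 5 arrays, for the 20 lists with the widest range. Striatum, myelin and oligodendrocyte precursor genes are highest on replicate 19, where meninges and principal neuron genes are lowest, and choroid plexus genes are highest on replicates 16 and 17.

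The genes that varied among untreated mice also varied among treated ones. The spread within the MS2 and MS5 groups, pooled over the 10 arrays, was ranked over all 44721 probes detected on at least 1 Con array. Of the 30 most variable genes, 19 lay in the top 1% of that ranking, 21 in the top 5% and 6 in the lower part below the median, and their median percentile was 99.83. The 6 that ranked low included Olfr70, Hsd17b7 and Cct3. With probes that had a called spot left out, 26 of 30 were in the top 1% and 29 in the top 5%. The exception, Mip, a lens water channel that read 6.05, 5.94, 6.15, 8.55 and 5.92, had a treated SD of 0.07. On replicate 18 its spot, at row 284 and column 143, lay next to a called spot at row 284 and column 144. The spot of 4930579P08Rik, at row 288 and column 143, was likewise high on replicate 18 alone and was not called. Whether these values come from flawed spots was not tested. Prss42, at rank 33 of that order, read 5.91, 8.13, 5.87, 5.93 and 5.82 and likewise was high on a single array. Without MS2 replicate 4 and MS5 replicate 9, the count in the top 1% was 20 of the 30, and with called spots also left out 28 of 30. Syt10, a synaptotagmin, read 8.46, 9.97, 8.86, 11.01 and 10.44 and was in the top 1% too, with a treated SD of 1.14.

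Slides could be compared because both held Con arrays. In limma, 0 of 55681 probes differed between slide 1 and slide 2 after Benjamini-Hochberg adjustment, with a smallest adjusted p of 0.376, and 5295 had an unadjusted p under 0.05. Values of the slides did not overlap at 12756 of 44721 probes (28.5%), and among the 30 most variable genes at 0. With so few arrays some probes separate by chance, and that share was not worked out. The 30 genes were chosen by their spread over these same arrays, often carried by a single array. Their count therefore cannot show whether the slide had a part in them. Within the 15 mRNA arrays, with treatment group as a covariate, limma called 2048 probes, of which 1721 were higher on slide 2 (smallest adjusted p 6.17e-05). MS2 replicate 4, MS5 replicate 9 and Con replicate 19 all lay on slide 2, where MS2 replicates 4 and 5 were the only MS2 arrays. Slide and the make-up of these samples therefore cannot be told apart in that count. Without Con replicate 16 the count among Con arrays was 95 and without replicate 19 it was 9.

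Spots printed several times gave a measure of error within an array. For 336 probes that have 10 spots each and were detected on all 5 arrays, the median SD between spots of 1 array was 0.07, and the median SD between arrays was 0.12. The spread between arrays was the larger for 251 of the 336 (74.7%). Of the brightest genes, in the top 25% of those detected on all 5 arrays, the 10 with the smallest spread were Ndor1 (18.22, 18.23, 18.23, 18.24 and 18.22), Wbp11, Pcbp2, Cxcl11, Npepps, Gm14439, Asnsd1, Sf3b4, Gm885 and Ssbp1, with SDs from 0.01 to 0.02. Ndor1, Cxcl11 and Gm885 were measured there by repeated probes near the top of the range. Wbp11, Pcbp2 and Sf3b4 are RNA-binding or splicing proteins with levels of 13.49, 13.86 and 12.65.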

How the data were processed

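RNA of 5 untreated mice was measured on 1-colour Agilent 8x60K arrays. The authors deposited the scanner's intensity of each spot (Feature Extraction 10.7.1.1, probe coordinates in mm9) and a table of log2 values that they had background-adjusted with normexp and quantile normalized over 15 arrays. The table held the first spot of each probe: recomputed values at an offset of 50 differed by at most 5e-09. These log2 values were used throughout. Of 62976 spots, 3671 control spots were dropped. Of 23688 symbols, 19539 are current in RefSeq and 2395 are older synonyms. R 4.3.3, limma 3.58.1, Python 3.11.15, numpy 2.4.6 and pandas 2.3.3 were used, and the slide comparison was tested on simulated data.

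A gene's level is that of its brightest probe and its spread that of its most variable probe. Named were the 30 brightest and 30 most variable genes, the 10 steadiest among the top 25% by level, all genes of the marker lists, and family members that went against their family where 5 or fewer. Other names were chosen after their values were seen. The members, marker lists and alternatives were chosen with earlier results of these data known. Alternatives were another detection flag, background, scaling, probe choice, measure of spread and filter, and leaving out each array. Some items are not reported here.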

Additional observations from a re-analysis of the deposited data

Results flagged for a closer look

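For 46 genes given array by array and 41 marker lists, the gap between the most extreme array and its nearest neighbour was set against the range of all 5 arrays. A ratio above 0.71 marks a sample far from the others (Dixon's test), and chance marks about 1 in 20 such groups. Over all 44721 probes detected on at least 1 Con array, 2536 (5.67%) passed. Of the 46 genes 18 passed, but many of them were named for their spread over these same 5 arrays, so the ratios only describe the values and are no test of an array.

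Con replicate 19 was the array apart for Scn4b (0.821), Penk (0.871), Ppp1r1b (0.790), Drd1a (0.896), Adora2a (0.905), Rgs9 (0.905), Pvalb (0.779), S100a9 (0.804) and S100a8 (0.807), all high there. It was the low one for Neurod6 (0.863) and Ptgds (0.737). Replicate 17 was apart for Mical3 (0.943), Hsd17b7 (0.938) and Cct3 (0.965), and replicate 16 for Olfr70 (0.982), all with a called spot. Mip on replicate 18 (0.912) and Prss42 on replicate 16 (0.953) were apart with no called spot, although the Mip spot lay next to a called spot of replicate 18. Slc10a1 reached 1.00 through the method: 4 arrays shared 18.76, the highest value that quantile normalization gives, and replicate 15 read 18.71, the value of a lower rank. Among list means 3 of 41 passed, a share near the 5.67% over all probes, so these ratios too only describe the values. The 3 lists were striatum on replicate 19 (0.831), the X and Y sex genes on replicate 17 (0.874) and pancreas on replicate 16 (0.885). The last rests mostly on Cela2a, which read 7.59 on replicate 16 and 5.83 to 5.86 on the others. The range of the last 2 list means was 0.16 and 0.30.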

How the results depend on the processing

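Detection counts stayed close whether all spots of a probe had to pass or called spots were dropped. With the scanner's weaker flag (positive and significant), 3640 probes and 1244 gene symbols were on no array. Of the 30 brightest genes, 13 stayed when all probes of a gene were averaged and 15 when repeated probes were dropped (29 to 30 when 1 array was left out). Of the 30 most variable genes, 10 stayed with the processed signal scaled to the 75th percentile, 18 with a normexp offset of 0 and 7 with the median absolute deviation. Leaving out 1 array kept 17 to 29, fewest without replicate 19. The number highest on replicate 19 was 19, but 7 with the scaled signal and 11 with the offset of 0 (18 to 25 when 1 array was left out). The causes were not tested.

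The striatum list on replicate 19 exceeded the mean of the other arrays by 2.67, by 2.98 with the scaled signal, by 2.90 with the offset of 0 and by 2.61 to 2.77 when 1 other array was left out. Red blood cell genes on replicate 17 differed by -0.61 from the other arrays, and by -0.84 with the scaled signal. Between slides limma called 0 probes, 0 to 95 when 1 array was left out and 2048 over all 15 mRNA arrays. In all, 142 further values of summary results stayed within their limits. Of the values of single genes and further lists, mostly ranks by level or spread, 684 stayed (a rank within the first 30) and 130 moved. A reversal could be scored only for the differences between arrays in marker list means, and 0 of those reversed. Counts and ranks have no direction to reverse. No paired analysis was possible because the untreated arrays form a single group whose numbers no treated mRNA array shares. Some alternatives were chosen after seeing the data. Levels near background, probe differences within a gene and the small number of arrays limit these values.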
